A study of Mus musculus with 11 samples.

Results

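The BCL2 family genes described here are the prosurvival members Bcl2, Bcl2l1, Bcl2l2 and Mcl1, the pore-forming effector Bak1, and the BH3-carrying members Bad, Bid, Bcl2l11, Pmaip1 and Bnip3. They are the 10 rows, of 55350 genes listed in either of the deposited count tables, whose gene symbol is a member, and all 10 were found in both the pancreas and the adipose tissue table. RNA was sequenced in bulk from male wild-type C57BL/6 mice (C57BL/6J in the methods of the study) labelled 16 weeks old. The control group consisted of lean mice on chow that received saline, with 2 pancreas and 3 epididymal adipose libraries. The OA-AP group, for obesity-related alcohol-induced acute pancreatitis, received a fat-rich diet over 12 weeks, then 2 intraperitoneal ethanol injections of 2 g/kg, with 3 libraries of each tissue taken 12 h after the first injection. Diet and ethanol differed together between the groups and cannot be told apart, and the labels do not say whether the libraries of a group came from separate animals, so the p-values measure the spread between these libraries.

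Proteins of this family set the threshold of the mitochondrial pathway of apoptosis. Effectors such as BAK open the outer mitochondrial membrane and release cytochrome c, prosurvival proteins such as BCL-2, BCL-XL (Bcl2l1), BCL-W (Bcl2l2) and MCL-1 hold them in check, and BH3-only proteins such as BIM (Bcl2l11), NOXA (Pmaip1), BAD and BID bind the prosurvival proteins or activate the effectors. BNIP3 is an atypical member of the outer mitochondrial membrane best known as a hypoxia-induced receptor for mitophagy. In the pancreas, acinar cell death through this pathway is one of the outcomes studied in experimental pancreatitis.

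Promoters of the members were read from RefSeq (GRCm38.p6), where 9 of 10 members had an entry, with 13 start sites in all. The windows of 300 bases were searched on both strands for the HIF core ACGTG, the STAT palindrome TTCNNNGAA, the AP-1 site TGANTCA and the NF-kB consensus, which occur in 19.6%, 8.3%, 7.81% and 8.46% of all 32851 promoters of this length. Among the member start sites the HIF core was found at 1, in Bnip3, and the NF-kB consensus at 1, in Bcl2l1, while the STAT and AP-1 letters were in 0 of the 13 windows. Bcl2l1 had 3 listed starts, of which starts 1 and 3 held 0 matches to any motif, and the start shown is the one with the match. Promoters of Bnip3 and Bcl2l1 are shown for the smallest p-value and the largest fold change among the members tested in the pancreas. The upstream part of each is given 5′ to 3′ on the strand of the gene, at chr7:138909507-138909756 (minus strand) for Bnip3 and at chr2:152830718-152830967 (minus strand) for the second listed start of Bcl2l1, and the capitals mark the matched letters. In Bnip3 the match is palindromic, so both strands hold the core in overlapping positions.
Bnip3: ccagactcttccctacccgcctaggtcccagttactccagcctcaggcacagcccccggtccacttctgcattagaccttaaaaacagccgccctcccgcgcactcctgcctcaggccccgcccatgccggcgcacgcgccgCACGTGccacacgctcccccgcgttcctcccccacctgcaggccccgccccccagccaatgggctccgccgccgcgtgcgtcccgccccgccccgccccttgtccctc
Bcl2l1: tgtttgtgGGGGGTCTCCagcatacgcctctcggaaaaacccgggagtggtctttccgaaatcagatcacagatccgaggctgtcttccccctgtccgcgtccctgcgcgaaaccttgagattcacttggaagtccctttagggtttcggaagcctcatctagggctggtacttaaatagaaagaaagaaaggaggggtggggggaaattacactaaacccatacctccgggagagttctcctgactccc
A match describes the letters in these windows, and binding was not measured.

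The pancreas libraries held 14188832 to 17238919 counts and the adipose libraries 20825177 to 27928097 counts. Values are given as CPM, counts scaled to library size with TMM factors, and 3 counts corresponded to 0.157 to 0.299 CPM in the pancreas and 0.102 to 0.156 CPM in adipose tissue. None of the 10 acinar markers was at 0 in any pancreas library, and none of the 8 adipocyte markers was at 0 in any adipose library. The share of counts from acinar secretory genes was 81.9% and 83.4% in control pancreas libraries and 67.6% to 70.2% in those of OA-AP. Adipose Control replicate 2 carried 1.17% of such counts, against 0.0186% to 0.026% in the other adipose libraries, and pancreas OA-AP replicate 3 stood apart by neutrophil markers, given below. In bulk tissue, fewer cells of a type and less RNA per cell cannot be told apart.

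In the pancreas, 4 members were upregulated in OA-AP, namely Bcl2l1, Mcl1, Bcl2l11 and Bnip3, and 1, Bcl2, was downregulated. A gene was called up- or downregulated at a Benjamini-Hochberg adjusted p-value under 0.05 in edgeR's quasi-likelihood test together with a fold change of at least 1.5. The other 4 tested members, Bcl2l2, Bak1, Bad and Bid, were not called, and Pmaip1 was too low to be tested. Of all 12884 genes tested in the pancreas 29.8% were called, 16.2% upward and 13.5% downward. The 9 tested members had a median log2 fold change of 0.62, beside 0.039 for all genes tested. The groups did not overlap for 6 of the 9 tested members, where 62.3% of all tested genes did not overlap. Acinar cell RNA differed between the groups as well: the summed CPM of 10 acinar markers was 464000 and 545000 in controls and 220000 to 283000 in OA-AP, with 7 of the 10 called lower. The size of this gap depends on the TMM factors, 0.79 and 0.7 in controls and 1.32, 1.23 and 1.11 in OA-AP. As a share of all counts, acinar secretory genes differed less, at 81.9% and 83.4% against 67.6% to 70.2%. Islet markers summed to 979 and 1200 CPM in controls and 1350 to 1640 CPM in OA-AP, with 2 of 7 called higher (Iapp and Chga). Macrophage markers summed to 35.5 to 74 CPM in controls and 54.5 to 58.8 CPM in OA-AP, with 1 of 8 called lower (Csf1r), and endothelial markers to 61.9 and 78.4 CPM and 50 to 68.4 CPM, with 2 of 6 called lower (Kdr and Emcn). The part of these markers in the changes of the members was not tested.

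**Figure D1:**
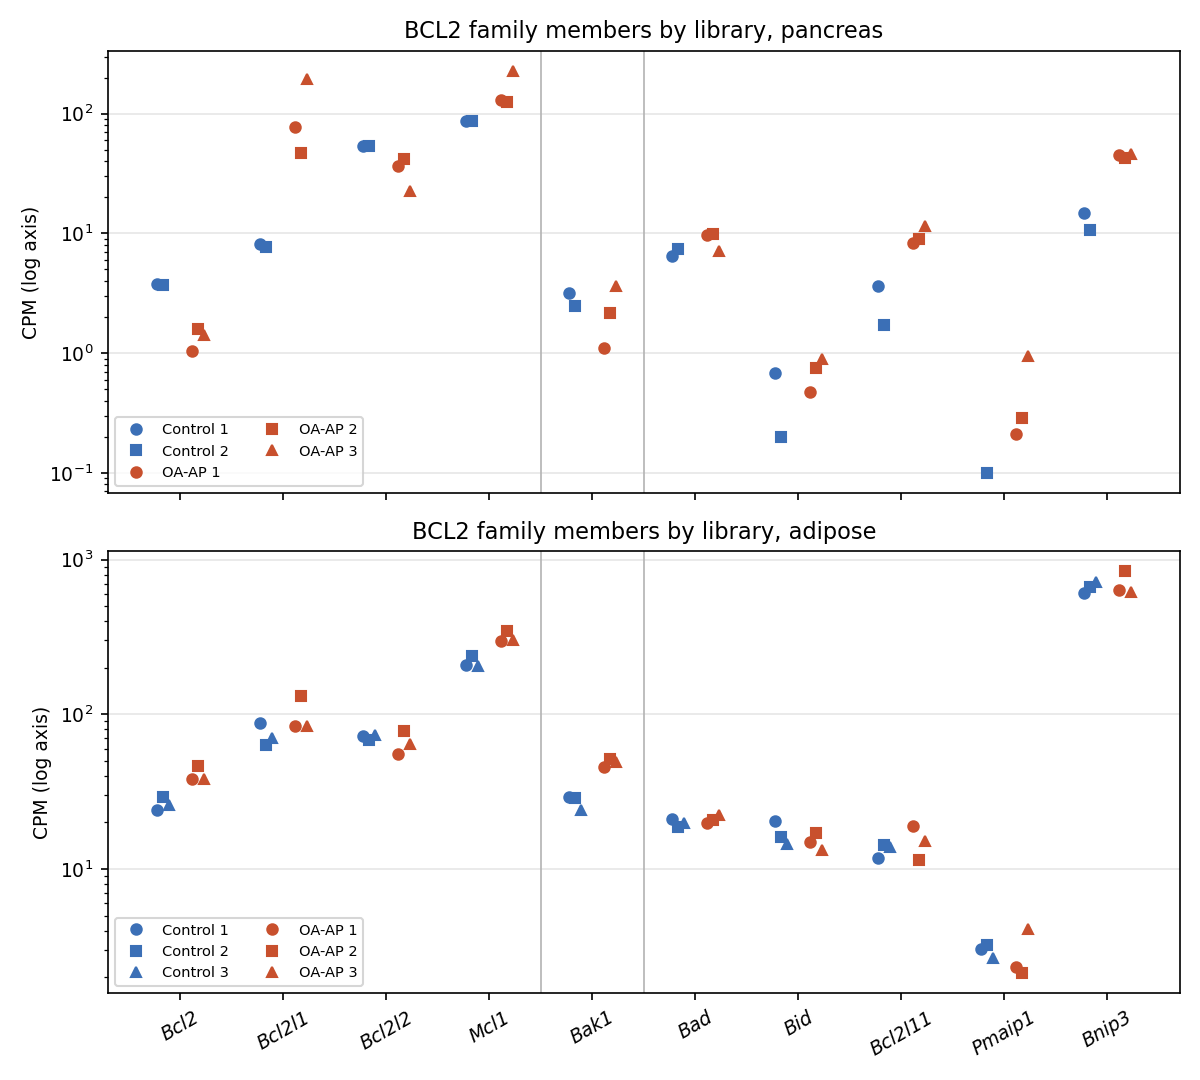
CPM of the 10 BCL2 family members in each library (log scale, points), pancreas and adipose tissue, control and OA-AP, with vertical lines between prosurvival members, the effector Bak1 and the BH3-carrying members. The 3 OA-AP pancreas libraries lie above both control libraries for Bcl2l1, Mcl1, Bcl2l11 and Bnip3 and below them for Bcl2, and Pmaip1 of pancreas Control replicate 1, at 0 counts, is not drawn.

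Bcl2l1 (ENSMUSG00000007659, chromosome 2, 152780668 to 152831728), which encodes BCL-XL, showed the largest fold change of the tested members in the pancreas. Control libraries had 8.15 and 7.68 CPM, and the OA-AP libraries 76.8, 46.6 and 196 CPM. Every OA-AP library was far above the controls, and replicate 3 was the highest. The mean was 7.91 ± 0.335 CPM (SD, n = 2) in the control group and 107 ± 79.2 CPM (SD, n = 3) in the OA-AP group, a log2 fold change of 3.75 (SE 0.79, 13.4-fold, adjusted p = 0.0235). OA-AP replicate 3 also had the most neutrophil marker RNA: the summed CPM of 8 markers ran from 0.944 to 1.89 without OA-AP, and was 12.5, 3.26 and 95.1 across OA-AP replicates 1 to 3. Ly6g, Mpo, Elane and Retnlg were at 0 counts in both controls, and 0 of the 5 testable markers were called by edgeR, where 1 passed an unadjusted p under 0.05 and DESeq2 called 4. Without OA-AP replicate 3 the log2 fold change of Bcl2l1 was 2.91 (adjusted p = 2.65e-05), so it remained called without that library. The call was lost when either control library was left out (adjusted p = 0.107 and 0.112) and when low-count genes were not filtered (3.82, adjusted p = 0.117), although the size of the change was similar.

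Mcl1 (ENSMUSG00000038612, chromosome 3, 95658788 to 95663176), a short-lived prosurvival protein, was measured at 86.8 and 87.6 CPM in the control pancreas and at 129, 125 and 228 CPM in the OA-AP pancreas. All OA-AP libraries were above the controls, with replicate 3 again the highest and the other two close together. The mean rose from 87.2 ± 0.629 to 160 ± 58.5 CPM, a log2 fold change of 0.88 (SE 0.27, 1.84-fold, adjusted p = 0.0449). The call for Mcl1 lay near the threshold: without OA-AP replicate 3 the log2 fold change was 0.49 (adjusted p = 0.00198), below the fold threshold, and without OA-AP replicate 1 it was 1.01 (adjusted p = 0.0546). It was also lost without either control library (adjusted p = 0.199 and 0.202), with DESeq2's size factors in edgeR (adjusted p = 0.0584) and with TMM factors computed without acinar genes (adjusted p = 0.0563).

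Bcl2 (ENSMUSG00000057329, chromosome 1, 106538178 to 106714274), the founding prosurvival member, moved the other way. It stood at 3.78 and 3.69 CPM in the control pancreas and at 1.05, 1.6 and 1.41 CPM in the OA-AP pancreas. The controls were nearly equal and all OA-AP libraries were below them. The mean fell from 3.73 ± 0.0611 to 1.35 ± 0.28 CPM, a log2 fold change of -1.46 (SE 0.33, adjusted p = 0.0126). The call was lost without either control library (-1.44 and -1.47, adjusted p = 0.0868 and 0.0834) and with library totals alone as scaling (-0.76, adjusted p = 0.121).

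Bcl2l2 (ENSMUSG00000089682, chromosome 14, 54883377 to 54888234), encoding BCL-W, was at 53.5 and 53.2 CPM in the control pancreas and at 36.3, 42 and 22.4 CPM in the OA-AP pancreas. The OA-AP libraries were all lower, but spread more widely, with replicate 3 the lowest. The log2 fold change was -0.67 (SE 0.24, adjusted p = 0.0676) and Bcl2l2 was not called. DESeq2 called it (-0.71, adjusted p = 0.0355), as did edgeR without a filter (-0.60, adjusted p = 0.00152) and without OA-AP replicate 2 (-0.86, adjusted p = 0.0221), whereas library totals alone turned the value to 0.06. Without OA-AP replicate 3 edgeR gave a smaller change of -0.49 (adjusted p = 0.00392), which fell short of the fold threshold. An overlapping read-through gene on the same strand, Gm20521, was listed at 0 counts in the pancreas. How reads shared by both genes were counted is not given in the sources used here. The 0 therefore does not show whether the overlap affected the counts of Bcl2l2.

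The make-up of the prosurvival transcripts within each library, which does not depend on scaling between libraries, is described without a test. Counts were divided by gene length, and the share of each gene in the sum of the 4 prosurvival members was taken. In the pancreas Bcl2l1 made up 4.36% ± 0.191 (SD, n = 2) in controls and 27.4% ± 9.62 (SD, n = 3) in OA-AP, with OA-AP libraries ranging from 18.1% to 37.3%. Bcl2l2 made up 30.2% ± 0.141 in controls and 11.4% ± 6.32 in OA-AP, ranging from 4.38% to 16.7%. Every OA-AP library thus held a larger share of Bcl2l1 and a smaller share of Bcl2l2 than either control. Mcl1 remained the most abundant of the 4 in every pancreas library, at 64.4% ± 0.424 in controls and 61% ± 3.49 in OA-AP, and Bcl2 was the least abundant, at 1.03% ± 0.0141 and 0.209% ± 0.0914. Per length, Bcl2l1 was 4.31 and 4.16 times as abundant as Bcl2 in control libraries, but 146, 58 and 278 times across those of OA-AP. These OA-AP ratios rest on 20, 28 and 27 counts of Bcl2, so their size is imprecise. The ratio of Bcl2l1 to Bcl2l2 was 0.148 and 0.14 in controls and 2.06, 1.08 and 8.52 in OA-AP, so the order of the pair was inverted in all OA-AP libraries.

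**Figure D2:**
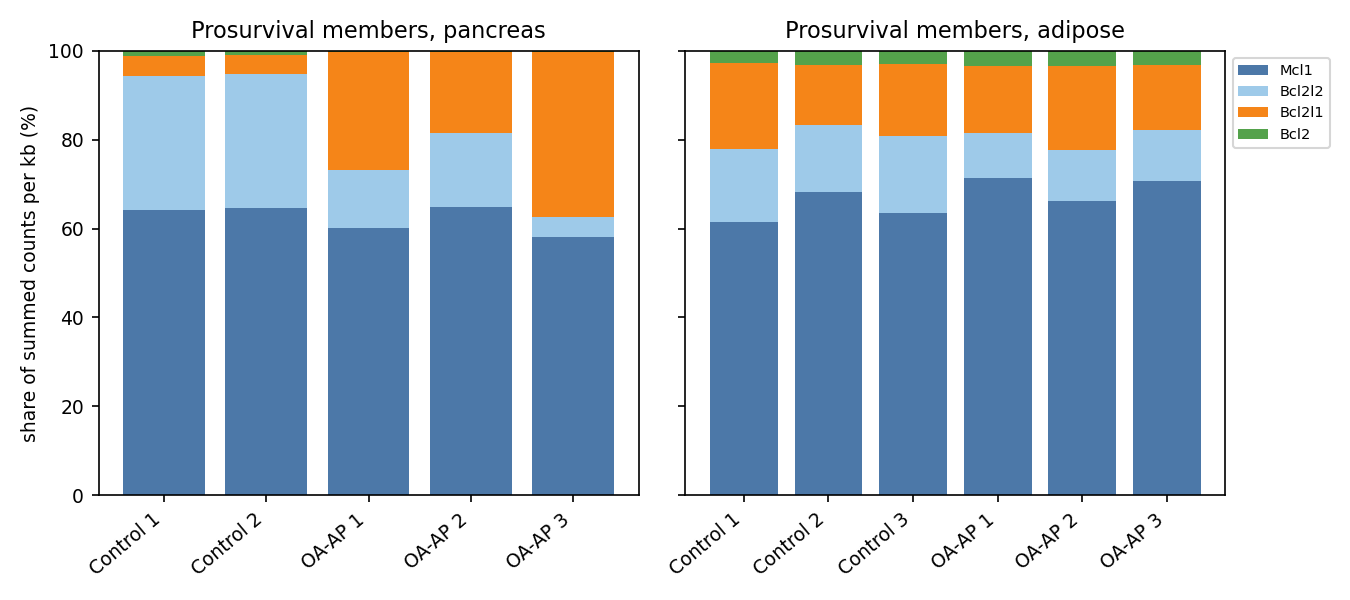
Share (%) of Mcl1, Bcl2l2, Bcl2l1 and Bcl2 in the summed counts per kb of the 4 prosurvival members, 1 bar per library. In the pancreas the share of Bcl2l1 is 4.36% in controls and 27.4% in OA-AP on average, whereas in adipose tissue it is 16.4% and 16.2%; Bcl2 is too thin to see in the OA-AP pancreas bars.

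Among the BH3-carrying members, Bnip3 and Bcl2l11 rose in the pancreas. Bnip3 (ENSMUSG00000078566, chromosome 7, 138890836 to 138909519), whose promoter is shown above, had 14.8 and 10.6 CPM in the controls and 45, 42.3 and 45.7 CPM in OA-AP. The OA-AP libraries were close together and all above the controls. Its mean rose from 12.7 ± 3.02 to 44.3 ± 1.79 CPM, a log2 fold change of 1.80 (SE 0.18, 3.48-fold, adjusted p = 0.000373). Bcl2l11 (ENSMUSG00000027381, chromosome 2, 128126038 to 128162547), which encodes the BH3-only protein BIM, was at 3.6 and 1.7 CPM in controls and at 8.29, 9.04 and 11.5 CPM in OA-AP. All OA-AP libraries were above both controls, of which replicate 1 was the higher. The log2 fold change was 1.84 (SE 0.33, 3.57-fold, adjusted p = 0.00443), with 2.50 (adjusted p = 0.0141) without Control replicate 1 and 1.41 (adjusted p = 0.0412) without Control replicate 2. Bnip3 and Bcl2l11 were called under every alternative setting run in the pancreas.

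Pmaip1 (ENSMUSG00000024521, chromosome 18, 66458604 to 66465550), encoding the p53-inducible BH3-only protein NOXA, was near the limit of detection in the pancreas. Control libraries had 0 and 1 counts, and OA-AP libraries 4, 5 and 18 counts, the highest again in replicate 3. The ratio of the pooled counts, adjusted for library size, was 10.5 with a 95% exact interval of 1.73 to 431, which covers counting error only. A fit without the low-count filter gave a log2 fold change of 3.23 (SE 1.35, adjusted p = 0.074). Bid (ENSMUSG00000004446, chromosome 6, 120891930 to 120916853), which couples death receptors to mitochondria, was also low, with 8 and 2 counts in controls and 9, 13 and 17 in OA-AP, and the groups overlapped in CPM. Its log2 fold change was 0.62 (SE 0.67, adjusted p = 0.507) and a pooled ratio of 1.52 had a 95% exact counting interval of 0.745 to 3.41. A change of Bid was not detectable at this depth.

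Bad (ENSMUSG00000024959, chromosome 19, 6941861 to 6951898), a BH3-only protein held inactive by Akt phosphorylation, was at 6.52 and 7.38 CPM in controls and at 9.71, 9.95 and 7.17 CPM in OA-AP. The groups overlapped through OA-AP replicate 3, and the log2 fold change was 0.36 (SE 0.22, adjusted p = 0.227); with library totals alone it was 1.09 (adjusted p = 0.00624). The effector Bak1 (ENSMUSG00000057789, chromosome 17, 27019810 to 27029009) was at 3.17 and 2.49 CPM in controls and at 1.1, 2.17 and 3.66 CPM in OA-AP. Its groups overlapped, the log2 fold change was -0.30 (SE 0.49, adjusted p = 0.673), and the sign turned without OA-AP replicate 1 (0.04) and when scaled by library totals alone (0.37). Bak1, Bad and Bid each overlap a gene on the opposite strand, Ggnbp1, Gpr137 and Bcl2l13 respectively, and since the strand setting of the counting is not given in the sources used here, reads in the overlaps cannot be assigned to either gene with certainty.

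Ranked by mean CPM per kb, the control pancreas ran from Mcl1 (25.5) over Bcl2l2 (12), Bnip3 (5.61), Bad (3.46), Bcl2l1 (1.73), Bak1 (1.18), Bcl2 (0.408), Bcl2l11 (0.33) and Bid (0.125) to Pmaip1 (0.0188). The libraries of Bcl2 and Bcl2l11 overlapped, so that pair could not be ordered. In the OA-AP pancreas Bcl2l1 (23.2) and Bnip3 (19.6) followed Mcl1 (46.9), then came Bcl2l2 (7.53), Bad (4.46), Bcl2l11 (1.2), Bak1 (0.961), Bid (0.198), Pmaip1 (0.181) and Bcl2 (0.148). Across the OA-AP libraries the range of Bcl2l1 overlapped with that of Mcl1, but within each library Mcl1 was the higher. The order of Bcl2l1 and Bnip3, of Bcl2l11 and Bak1, and of Pmaip1 against Bid and Bcl2 changed from library to library, so these neighbours could not be ordered. The ratio of Bcl2l11 to Mcl1 per length was 0.0177 and 0.00823 in controls and 0.0275, 0.0309 and 0.0214 in OA-AP.

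**Figure D3:**
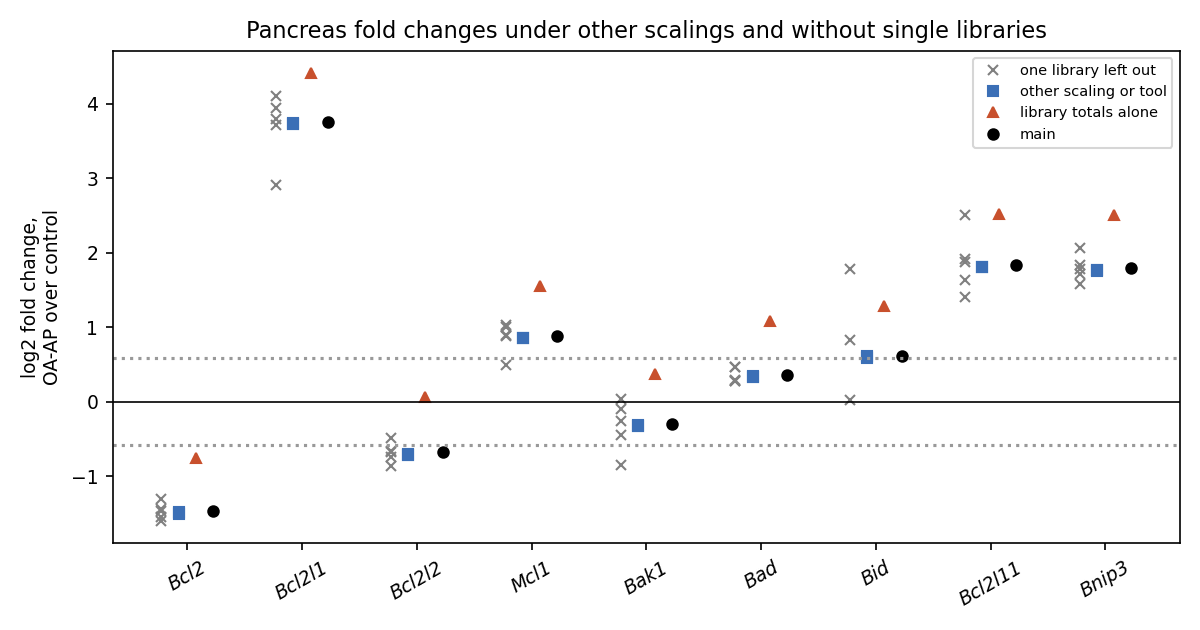
Log2 fold change (OA-AP over control) of the 9 members tested in the pancreas in the reported fit (black), with other scalings or tools (blue), with library totals alone (red) and with 1 library left out (grey crosses); dotted lines mark a 1.5-fold change. Bcl2l1, Mcl1, Bcl2l11 and Bnip3 stay above 0 under each setting and Bcl2 below 0, while Bcl2l2 and Bak1 cross 0 with library totals alone and Bak1 also when OA-AP replicate 1 is left out.

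In epididymal adipose tissue, 2 members were upregulated, Bcl2 and Bak1, and 0 were downregulated; by an unadjusted p under 0.05 edgeR found 3 higher and 0 lower, and DESeq2 called 2 and 0. Of all 15839 genes tested in adipose tissue 25.1% were called, 12.1% upward and 13% downward. The 10 members had a median log2 fold change of 0.14, beside -0.015 for all genes tested, and their groups did not overlap for 3 of the 10, against 52.4% of all tested genes. Bak1 was at 29, 28.6 and 24.2 CPM in controls and at 45.9, 51.2 and 49 CPM in OA-AP. Every OA-AP library lay well above every control. The mean rose from 27.3 ± 2.65 to 48.7 ± 2.65 CPM (n = 3 per group, SD), or by 0.84 in log2 fold change (SE 0.10, 1.79-fold, adjusted p = 0.00155). Reads shared with the gene on the opposite strand cannot be told apart here either.

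Bcl2 was at 24.1, 29.3 and 26 CPM in the control adipose tissue and at 38, 46.2 and 38 CPM in the OA-AP tissue. The groups were apart, opposite in direction to the pancreas. The mean rose from 26.5 ± 2.61 to 40.7 ± 4.74 CPM, a log2 fold change of 0.62 (SE 0.12, 1.54-fold, adjusted p = 0.00727). This is just above the fold threshold, and the call was lost without Control replicate 1 (0.57), without OA-AP replicate 2 (0.53) and with library totals alone (0.47). Mcl1 was at 208, 237 and 206 CPM in controls and 296, 344 and 302 CPM in OA-AP, again with no overlap. Its log2 fold change of 0.53 (SE 0.11, 1.45-fold, adjusted p = 0.0108) passed the p threshold but not the fold threshold, and it was called without Control replicate 2 (0.61, adjusted p = 0.0218), the library with acinar RNA, where Bcl2 and Bak1 stayed called too.

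The other adipose members did not pass. Bcl2l1 was at 88.3, 63 and 70.4 CPM in controls and at 84.4, 132 and 83.5 CPM in OA-AP, with overlapping groups and a log2 fold change of 0.43 (SE 0.21, adjusted p = 0.149). Bnip3 was by far the most abundant member per length in adipose tissue, at 293 CPM per kb in controls and 308 in OA-AP. Its CPM was 606, 668 and 717 in controls and 639, 842 and 613 in OA-AP, and the log2 fold change was 0.07 (SE 0.16, adjusted p = 0.74). Bcl2l11, at 11.7 to 14.3 CPM in controls and 11.4 to 19.1 CPM in OA-AP, had a log2 fold change of 0.20 (SE 0.19, adjusted p = 0.453). Bcl2l2 was at 68.5 to 73.3 CPM in controls and 55 to 77.5 CPM in OA-AP, with a log2 fold change of -0.13 (SE 0.13, adjusted p = 0.474). Bad, Bid and Pmaip1 had log2 fold changes of 0.07, -0.17 and -0.06 (adjusted p = 0.612, 0.448 and 0.887). Their groups overlapped, and Pmaip1, barely detected in the pancreas, stood at 2.66 to 3.22 CPM in control adipose tissue and 2.12 to 4.09 CPM in OA-AP. Of the 5 BH3-carrying members 0 were called in adipose tissue by edgeR, with 0 at an unadjusted p under 0.05 and 0 called by DESeq2. With 25.1% of all genes called, 0 of 5 does not set this small group apart.

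Ranked by mean CPM per kb, the control adipose tissue ran from Bnip3 over Mcl1 (63.5), Bcl2l1 (16.1), Bcl2l2 (16), Bak1 (11.3), Bad (9.96), Bid (4.78), Bcl2 (2.89) and Bcl2l11 (1.65) to Pmaip1 (1.12). Bcl2l1 and Bcl2l2 overlapped, as did Bak1 and Bad. In OA-AP the order was the same except that Bak1 (20.2) passed Bcl2l2 (14.7) and Bcl2 (4.45) passed Bid (4.25), with overlap between Bcl2 and Bid, between Bcl2l1 (21.8) and Bak1, and between Bcl2l11 (1.9) and Pmaip1 (1.08). In the prosurvival transcripts of adipose tissue, Mcl1 made up 64.4% ± 3.48 in controls and 69.4% ± 2.73 in OA-AP, Bcl2l2 16.3% ± 1.11 and 11% ± 0.723, Bcl2l1 16.4% ± 2.95 and 16.2% ± 2.39, and Bcl2 2.93% ± 0.25 and 3.35% ± 0.0608 (SD, n = 3 each). The Bcl2l2 share was lower and the Bcl2 share higher in every OA-AP library than in every control. Markers of other cells moved in adipose tissue too. The summed CPM of neutrophil markers was 9.45 to 15.7 in controls and 144 to 179 in OA-AP, with 5 of 6 tested markers higher and 1 lower. Lymphocyte markers summed to 9.45 to 40.4 CPM in controls and 2.13 to 4.44 CPM in OA-AP, with 5 of 7 lower, and macrophage markers summed to 943 to 1170 CPM and 1130 to 1650 CPM, with 4 of 8 higher and 1 lower. Adipocyte markers summed to 37500 to 40600 CPM in controls and 30800 to 37600 CPM in OA-AP, with 1 of 8 higher and 2 lower. Fibroblast markers summed to 2930 to 3730 CPM in controls and 1730 to 2240 CPM in OA-AP, without overlap, and 4 of 6 were lower (Col1a1, Col3a1, Dcn and Lum). Their part in the changes of Bak1 and Bcl2 was not tested.

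**Figure D4:**
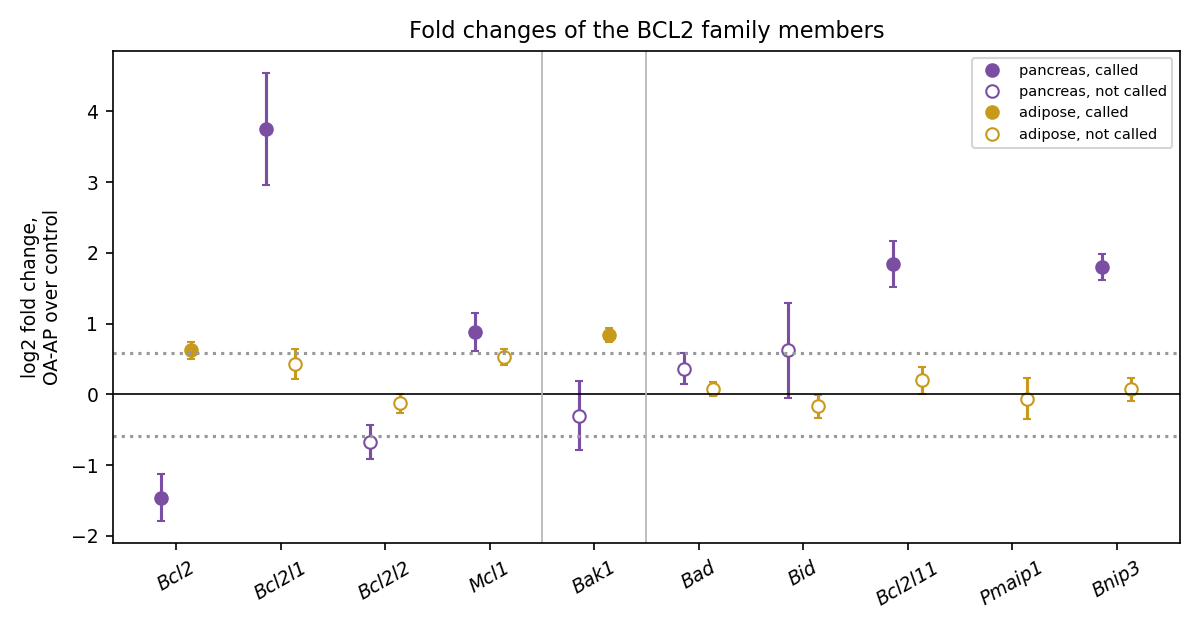
Log2 fold change (OA-AP over control) with its standard error for each member in the pancreas and in adipose tissue, with dotted lines at a 1.5-fold change; Pmaip1 has no point in the pancreas. Bcl2 lies at -1.46 in the pancreas and 0.62 in adipose tissue, and Bcl2l1, Bcl2l11 and Bnip3 lie at 3.75, 1.84 and 1.80 in the pancreas and at 0.43, 0.20 and 0.07 in adipose tissue.

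Whether the change of a gene differed between the tissues was tested as the tissue by condition term over all 11 libraries, where a call needed an adjusted p under 0.05. Of 17046 genes tested 21.3% were called, 10.5% with a higher and 10.8% with a lower log2 fold change in the pancreas. Of the 10 members 4 were called, 3 with a higher log2 fold change in the pancreas and 1, Bcl2, with a lower. Bcl2 had a log2 fold change lower by 2.08 in the pancreas than in adipose tissue (SE 0.27, adjusted p = 0.000346). The excess in the pancreas was 1.73 for Bnip3 (SE 0.25, adjusted p = 0.000736), 3.32 for Bcl2l1 (SE 0.72, adjusted p = 0.00958) and 1.65 for Bcl2l11 (SE 0.39, adjusted p = 0.0116). For Mcl1 the difference was 0.35 (SE 0.31, adjusted p = 0.466), and for Bak1 it was -1.13 (SE 0.46, adjusted p = 0.108). The calls of Bcl2l1 and Bcl2l11 were lost without pancreas Control replicate 2 (adjusted p = 0.0513 and 0.0662), and that of Bcl2l1 also with the replicate number as a block (3.12, adjusted p = 0.0906). No label states if pancreas and adipose libraries with the same number share a mouse, and the fit without the block treats all 11 libraries as separate.

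The list of the other BCL2 family genes holds 17 genes, of which 10 were tested in the pancreas. There 4 rose, the BH3-only genes Bmf and Bbc3 (PUMA), the effector Bax and Bcl2l13, and 1, Bok, fell; the median log2 fold change of the 10 was 0.80. Bmf rose from 5.22 ± 0.0961 to 31.1 ± 7.17 CPM, a log2 fold change of 2.58 (SE 0.23, adjusted p = 0.000264). Bbc3 rose from 5.59 ± 0.983 to 20.9 ± 3.77 CPM (1.91, SE 0.22, adjusted p = 0.000693), Bax from 6.55 ± 0.937 to 15.8 ± 2.25 CPM (1.27, SE 0.20, adjusted p = 0.00251), and Bcl2l13, which shares part of its locus with Bid, by 1.08 (SE 0.20, adjusted p = 0.00471). Bok fell by 1.61 on the log2 scale (SE 0.33, adjusted p = 0.0089). In adipose tissue, where 13 were tested with a median of 0.07, 1 rose and 2 fell: Bax rose by 0.86 (SE 0.09, adjusted p = 0.00112), Bbc3 fell from 7.05 ± 2.27 to 2.73 ± 0.838 CPM (-1.37, SE 0.32, adjusted p = 0.0148), and Hrk fell from 1.79 ± 1.01 to 0.26 ± 0.279 CPM (-2.73, SE 0.71, adjusted p = 0.0237). The change of Bbc3 differed between the tissues by 3.28 (SE 0.42, adjusted p = 0.000335) and that of Bmf by 3.35 (SE 0.52, adjusted p = 0.00147), while that of Bax differed by 0.42 (SE 0.21, adjusted p = 0.19). Of all genes tested, 16.2% were called higher and 13.5% lower in the pancreas, and 12.1% and 13% in adipose tissue.

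**Figure D5:**
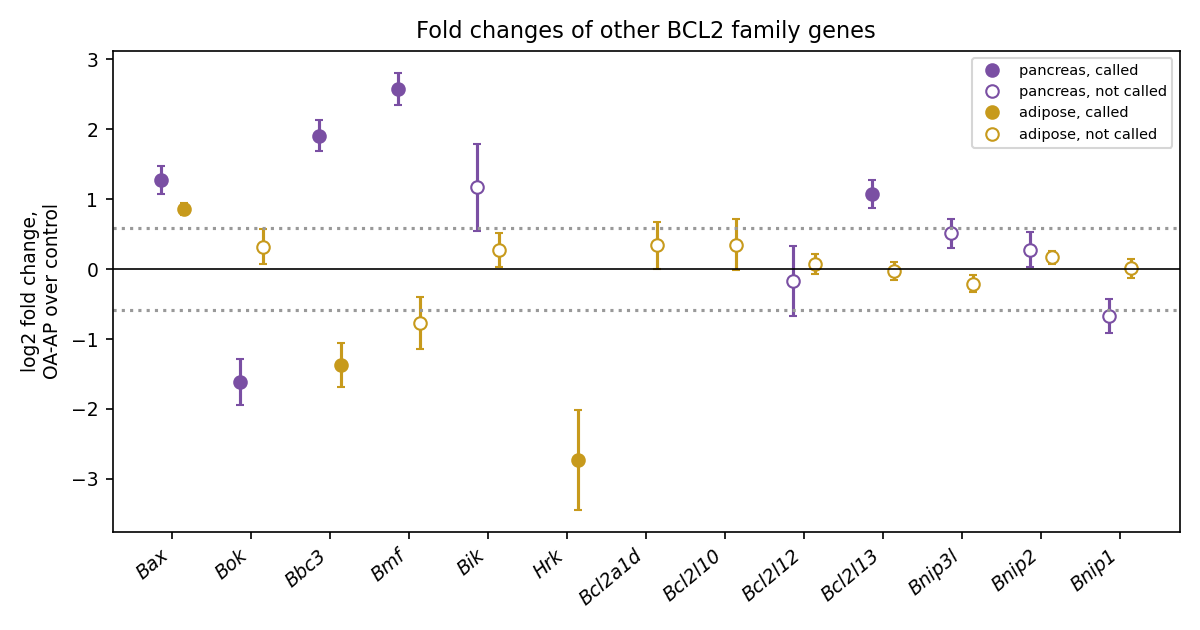
Log2 fold change (OA-AP over control) with its standard error of the other BCL2 family genes tested, in the pancreas and in adipose tissue. Bmf and Bbc3 lie at 2.58 and 1.91 in the pancreas and at -0.77 and -1.37 in adipose tissue, whereas Bax is above 0 in both.

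The genes around the family were read as 5 lists. Beside their counts, 16.2% of all tested genes were called higher and 13.5% lower in the pancreas (12.1% and 13% in adipose tissue). Among apoptosome and caspase genes, 3 of 19 rose and 4 fell in the pancreas (median -0.12), with Birc3 (2.25), an inhibitor of apoptosis protein, and the apoptosome scaffold Apaf1 (2.19) higher and Parp1 (-1.16), a caspase substrate, lower. In adipose tissue 2 of 20 rose and 1 fell, Casp9 by 0.66. Among death receptor genes, which reach the family through Bid, 4 of 10 rose and 1 fell in the pancreas (median 0.65), including Tnfrsf1a (1.95) and Tnfsf10 (-3.04), the gene of TRAIL, and 5 of 10 rose in adipose tissue (median 0.59), where 0 were lower in edgeR, 0 at an unadjusted p under 0.05 and 0 in DESeq2. The TRAIL receptor gene Tnfrsf10b rose in both tissues, by 2.09 and 1.22.

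Transcription regulators of the family gave 6 of 19 higher and 1 lower in the pancreas (median 0.55), with Stat3 (3.08), Rela (3.27), Jun (2.51) and Foxo3 (1.82) among those higher. Foxo3 is a known activator of Bcl2l11, and STAT3 of Bcl2l1 and Mcl1. Their part in the changes of these members was not tested. In adipose tissue 5 of 21 rose and 2 fell (median 0.35), including Hif1a (1.23), Nfil3 (3.06), Stat3 (1.36) and Trp53 (0.91). Nfil3 (3.92) and Trp53 (0.95) were also called higher in the pancreas. Kinases and other regulators of MCL-1 and BIM turnover gave 4 of 17 higher and 3 lower in the pancreas (median 0), with Pim3 (-1.87) and Akt1 (-0.89) lower and Akt2 (0.69) and Ywhaz (1.16) higher. In adipose tissue 3 of 17 rose and 1 fell (median 0.20), with Bag3 (0.80), Pim1 (1.28) and Pim3 (0.59) higher and Akt2 (-0.92) lower. Mitochondrial partners gave 1 of 21 higher, Tmbim1 (1.31), and 4 lower in the pancreas (median 0.02), Vdac2 (-0.75), Fundc1 (-0.67) and Fis1 (-0.60) among them. In adipose tissue 0 of 21 were called by edgeR or DESeq2, with 4 higher and 2 lower at an unadjusted p under 0.05.

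The genes with profiles most like the member with the smallest p-value in each tissue were found by Pearson's r of log2 CPM over all 11 libraries, among 11977 genes. For Bnip3 they were Mgll (0.989), Slc2a3 (0.988) and Piezo1 (0.988), and for Bak1 they were Fam45a (0.98), Caskin2 (0.979) and Ralb (0.971). The libraries share the difference between the tissues, which these values include.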

How the data were processed

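RNA sequencing counts of 5 pancreas and 6 epididymal adipose libraries were analysed. According to the methods and the processing notes, the authors trimmed reads with Trim Galore 0.6.6, checked them with fastp 0.20.1, mapped them to GRCm38 (STAR), counted reads per gene with featureCounts 2.0.1, and deposited whole-number counts per gene without normalization. The annotation release and the strand setting are not given in the sources used here. Gene lengths and coordinates are those listed in the deposited pancreas table. Each tissue was tested over its whole table with edgeR 4.0.16 (filterByExpr, TMM, robust quasi-likelihood test, Benjamini-Hochberg adjustment), in R 4.3.3. CPM were computed from counts and TMM-scaled library sizes. A tissue by condition term was tested over all 11 libraries. Standard errors were derived from each log2 fold change and its F statistic. The tests were checked on simulated data. Alternatives were DESeq2 1.42.0, other scalings, filters and fold thresholds, each library left out, and a replicate block. From each other list, up to 4 called genes with the smallest p-value per tissue were eligible to be named, and some of these are given. The members and lists were chosen with earlier results of these data known. No pair of replicates agreed within sampling noise (chi-square over its degrees of freedom at least 7.56).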

Additional observations from a re-analysis of the deposited data

Results flagged for a closer look

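The change of 4 members differed between the tissues by the tissue by condition test with edgeR. The log2 fold change of Bcl2 differed by -2.08 (pancreas minus adipose tissue), and that of Bcl2l1 was 3.32, of Bnip3 1.73 and of Bcl2l11 1.65 higher in the pancreas. Without pancreas Control replicate 2 the calls of Bcl2l1 and Bcl2l11 were lost (adjusted p = 0.0513 and 0.0662) and 2 members were called, and with the replicate number as a block that of Bcl2l1 was lost (adjusted p = 0.0906). Bcl2 was lower in all 3 OA-AP pancreas libraries than in both controls and higher in all 3 OA-AP adipose libraries than in all 3 controls.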

How the results depend on the processing

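The number of genes called in the pancreas was 3834 with TMM scaling, 6349 (92% of them higher) with library totals alone, against 54.5% higher before, and 2464 with a fold change of 2, and ranged from 1495 to 4265 with 1 library left out. Library totals alone moved the median log2 fold change of all genes to 0.75. Members called in the pancreas ranged from 2 (without either control) to 6 (without OA-AP replicate 2) with 1 library left out. In adipose tissue, 2228 genes were called with a fold change of 2 against 3981, with 0 members. Library totals alone left 1 adipose member and called 4250 genes, 32.1% higher against 48.1%. Leaving out 1 library gave 1 (without Control replicate 1 or OA-AP replicate 2) to 3 adipose members. For the tissue by condition term, library totals alone called 6662 genes, 94.1% of them higher against 49.3%, and 8 members, and leaving out 1 library gave 2334 to 3857 genes and 2 to 5 members, the lowest without pancreas Control replicate 2.

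Some values changed sign. With library totals alone, pancreas Bcl2l2 was 0.06 and Bak1 0.37, adipose Bad -0.08 and Bnip3 -0.07, and the tissue difference of Bcl2l2 was 0.33. With 1 library left out, pancreas Bak1 ranged from -0.85 to 0.04, adipose Pmaip1 from -0.41 to 0.12 and adipose Bnip3 from -0.08 to 0.16. Without division by gene length, the Bcl2 share changed by -1.95 percentage points in the pancreas and by 1.03 in adipose tissue. The cause of these changes was not tested.

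Whether the replicate numbers pair the samples could not be decided. Correlations of deviations of same-numbered control and OA-AP libraries ran from -0.163 to 0.056, while unlike-numbered adipose libraries reached -0.25 and 0.293. Deviations from a group mean are tied to each other in groups this small, and those of the 2 pancreas controls are exact mirrors. With the replicate number as a block, 4 pancreas and 2 adipose members were called. Pancreas Mcl1 (0.54, edgeR adjusted p = 0.0029) no longer passed the fold threshold. Pancreas OA-AP replicate 3 has no control of its number, so it did not inform the pancreas fold changes under the block. Without that library and without a block, Mcl1 was at 0.49. For the tissue by condition term the block called 2156 genes and 3 members, with Bcl2l1 at 3.12 (adjusted p = 0.0906). Adipose Control replicate 3, with no pancreas control of its number, likewise did not inform that term. With 2 control libraries, the pancreas calls rest on few degrees of freedom, and counts of Bid and Pmaip1 there are too low to size a change.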
